A study of Rattus norvegicus with 12 samples.

Results

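The chemokines and macrophage growth factors described here are 10 genes whose proteins carry signals from tubular cells to leukocytes: Ccl2, Ccl7, Ccl20, Cxcl1, Cxcl2, Cxcl10, Cxcl12, Cx3cl1, Csf1 and Il34. They were taken by name from the 24660 genes of a count table, and the list was drawn up with earlier results of these data known. RNA-seq libraries had been made from NRK-52E, an established line of wild-type rat renal tubular epithelial cells, in 4 groups of 3 libraries, to set 3D-EVs against 2D-EVs (extracellular vesicles obtained by an efficient production method or by the conventional one) in cells given TGF-beta1 as a model of renal fibrosis. The 3D-EV group received 10 µg/ml TGF-beta1 (the unit as the labels write it) for 24 h and then 3D-EVs at 500000000 particles/ml for 48 h. The 2D-EV group received the same TGF-beta1 and then 2D-EVs at the same particle number and for the same time. The TGF-beta1 group received TGF-beta1 without vesicles, and the control group received neither. All 4 groups are 1 cell line in culture with serum and hold no added leukocytes. The labels used here do not name the cells that released the vesicles, do not say when the control and TGF-beta1 cells were harvested, and do not say whether the 3 libraries of a group came from separate cultures, so the p-values rest on variation among these libraries, which may be technical.

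Chemokines are small secreted proteins that guide leukocytes along a gradient by binding receptors on the leukocyte surface. The CC members Ccl2 and Ccl7 act on Ccr2 of monocytes, and Ccl20 acts on Ccr6 of lymphocytes and dendritic cells. The CXC members Cxcl1 and Cxcl2 act on Cxcr2 of neutrophils, Cxcl10 acts on Cxcr3 of activated T cells, and Cxcl12 acts on Cxcr4. Cx3cl1 is made as a membrane-bound protein from which proteases release a soluble form, and its receptor is Cx3cr1. Csf1 and Il34 are the ligands of Csf1r, the receptor that macrophages need for survival and growth. In injured kidney, tubular cells are known as a source of Ccl2 and Csf1, which draw monocytes and sustain macrophages.

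The 12 libraries held 32888125 to 39754319 counts each. A single count was worth 0.0255 to 0.0305 CPM (the gene's count normalised to library size, with trimmed-mean scaling), and a floor of 3 counts corresponded to 0.0764 to 0.0916 CPM, for counting error only. The tubular identity of the cells rested on few markers: of 14 listed, Epcam and Pax2 were at 0 in all 12 libraries, Krt18 had 0 to 5 counts, Pax8 had 0 to 8 and Cdh1 had 2 to 30, while Krt8 had 34718 to 46419. The summed tubular marker level was 1496 to 1553 CPM in 3D-EV, 1510 to 1544 CPM in 2D-EV, 1532 to 1595 CPM in TGF-beta1 and 1219 to 1248 CPM in control libraries. Of 12 leukocyte markers, Ptprc, Itgam, Tyrobp, C1qa and C1qb were at 0 throughout, and their sum, carried by Fcer1g, was 146 to 155 CPM in 3D-EV, 154 to 159 in 2D-EV, 147 to 156 in TGF-beta1 and 153 to 163 in control libraries. Fibroblast markers summed to 224 to 235 CPM in 3D-EV, 226 to 234 in 2D-EV, 209 to 232 in TGF-beta1 and 253 to 271 in control libraries. That sum was carried by Col14a1, and its members did not move alike. Col14a1 averaged 130 CPM in TGF-beta1 and 199 CPM in control, while Postn averaged 65.0 CPM in TGF-beta1 and 41.3 CPM in control. Endothelial markers summed to 14.9 to 17.0 CPM in 3D-EV, 15.4 to 16.6 in 2D-EV, 14.8 to 15.9 in TGF-beta1 and 12 to 13 in control libraries. The tubular, fibroblast and endothelial sums of the control libraries lay apart from those of the other 3 groups, while the leukocyte sums overlapped, and their part in the results was not tested. In bulk RNA, fewer cells making a transcript and less transcript per cell cannot be told apart.

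In TGF-beta1 cells, Ccl2 rose and Csf1 fell against control, and both differences were present in the 3D-EV and 2D-EV groups as well. The test throughout was edgeR's quasi-likelihood test with Benjamini-Hochberg adjustment over the 14184 genes that passed a filter on low counts, at a threshold of 0.05. The filter kept 7 of the 10 members and left out Cxcl2, Cxcl12 and Il34. For TGF-beta1 against control, 1 of the 7 rose, where 11.8% of all tested genes did, and 1 fell, where 10.2% did. For 2D-EV against control, 1 of the 7 rose (10.5% of all genes) and 1 fell (8.13%). For 3D-EV against control, 3 of the 7 rose (12.2% of all genes) and 1 fell (10.8%). These 3 comparisons share the control libraries.

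Between the vesicle groups and TGF-beta1 alone, no member passed the adjusted test, and hardly any gene did. For 3D-EV against TGF-beta1, 0 members were called, and 0.0% of genes were higher and 0.0% lower. At an unadjusted p under 0.05 the same comparison held 4 of the 7 tested members and 1027 of the 14184 tested genes. DESeq2 called 13 genes where limma-voom called 0. For 2D-EV against TGF-beta1, 0 members were called, with 0.0% of genes higher and 0.0282% lower. At the unadjusted level it held 1 of the 7 members and 1007 of the 14184 genes, and DESeq2 called 56 genes and limma-voom 9. For 3D-EV against 2D-EV, 0 members were called, with 0.00705% of genes higher and 0.0% lower. Here 4 of the 7 members and 978 of the 14184 genes lay under an unadjusted 0.05, and DESeq2 called 21 genes and limma-voom 2.

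Against TGF-beta1 alone, the median estimate of the tested members was higher in 3D-EV than in 2D-EV cells, without a call in either. The log2 fold changes of the 7 tested members in 3D-EV against TGF-beta1 were all above 0, with a median of 0.61, while 49.9% of all genes were above 0 and their median was -0.00022. In 2D-EV against TGF-beta1 5 of 7 were above 0, with a median of 0.07 beside 0.0014 for all genes. In 3D-EV against 2D-EV 6 of 7 were above 0, with a median of 0.65 beside -0.00069. Both medians of the 3D-EV group depended on 1 library: without 3D-EV replicate 2 they were 0.20 against TGF-beta1 and 0.31 against 2D-EV. These counts describe the list and carry no test of it, and the first 2 comparisons share the TGF-beta1 libraries.

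**Figure D1:**
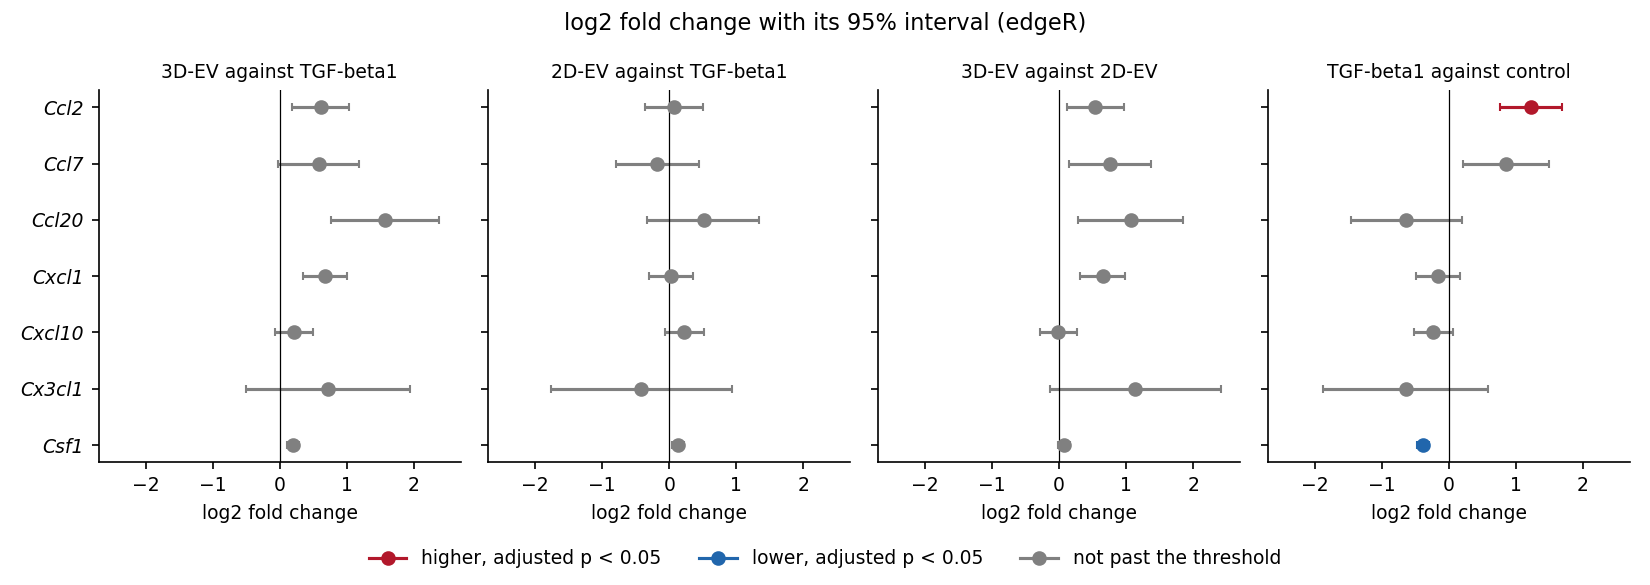
log2 fold change of the 7 tested members (rows) in 4 comparisons (panels), as points with unadjusted 95% intervals from edgeR's fit; the group named first in a panel title is higher to the right of 0, and colour marks an adjusted p under 0.05. Only Ccl2 and Csf1 in TGF-beta1 against control are coloured, at 1.23 and -0.38, and all 7 points of 3D-EV against TGF-beta1 lie right of 0.

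The 250 bases before and 50 bases after the RefSeq start of 5 members are shown because 4 of them (Cxcl1, Ccl20, Ccl7 and Cx3cl1) were highest in the same library and the other one (Cxcl10) was not, a choice made after their values were seen. Capitals mark matches, on either strand, to the decamer of NF-kB, a factor that switches on many chemokine genes in inflamed cells, to the AP-1 heptamer TGANTCA, and to the interferon response core TTTCNNTTT. RefSeq's table of GRCr8 holds such a window for 7 of the 10 members, and places these 5 at chr14:17479272-17479571 (minus strand), chr9:91836909-91837208 (plus strand), chr10:67513845-67514144 (plus strand), chr19:10242771-10243070 (minus strand) and chr14:15988816-15989115 (plus strand). It holds no window for Csf1, for Il34 or for Ccl2, which was also highest in that same library.
Cxcl1: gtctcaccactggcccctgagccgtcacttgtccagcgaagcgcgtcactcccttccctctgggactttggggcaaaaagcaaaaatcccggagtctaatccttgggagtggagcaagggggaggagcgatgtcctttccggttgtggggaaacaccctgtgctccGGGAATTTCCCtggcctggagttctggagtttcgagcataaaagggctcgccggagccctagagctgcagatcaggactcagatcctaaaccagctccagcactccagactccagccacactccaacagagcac
Ccl20: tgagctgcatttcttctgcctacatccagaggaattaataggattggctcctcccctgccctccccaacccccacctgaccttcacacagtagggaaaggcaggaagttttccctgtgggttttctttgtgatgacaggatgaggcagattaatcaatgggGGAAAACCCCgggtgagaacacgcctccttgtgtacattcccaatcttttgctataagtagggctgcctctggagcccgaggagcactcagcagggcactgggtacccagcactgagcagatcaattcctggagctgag
Ccl7: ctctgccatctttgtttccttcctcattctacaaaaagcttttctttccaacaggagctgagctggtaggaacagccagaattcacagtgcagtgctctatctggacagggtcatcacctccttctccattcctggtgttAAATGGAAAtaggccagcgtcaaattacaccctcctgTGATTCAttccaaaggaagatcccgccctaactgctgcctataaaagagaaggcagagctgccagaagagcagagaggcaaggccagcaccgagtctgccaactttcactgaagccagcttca
Cx3cl1: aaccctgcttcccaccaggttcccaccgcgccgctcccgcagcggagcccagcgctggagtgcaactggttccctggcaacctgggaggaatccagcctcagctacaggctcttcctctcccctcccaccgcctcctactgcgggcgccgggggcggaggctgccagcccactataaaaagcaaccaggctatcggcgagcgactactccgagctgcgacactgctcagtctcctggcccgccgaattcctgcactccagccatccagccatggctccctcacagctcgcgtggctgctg
Cxcl10: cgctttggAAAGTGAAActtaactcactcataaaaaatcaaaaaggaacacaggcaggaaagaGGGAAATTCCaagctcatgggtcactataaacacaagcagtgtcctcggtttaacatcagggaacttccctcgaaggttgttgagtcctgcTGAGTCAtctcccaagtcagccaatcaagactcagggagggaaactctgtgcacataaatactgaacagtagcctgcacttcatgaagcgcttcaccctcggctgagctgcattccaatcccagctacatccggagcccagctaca
The NF-kB decamer, which 4.18% of 33469 RefSeq windows of this length hold, was matched in Cxcl1 by an overlapping pair from position -84 to -74, in Ccl20 once at -89 to -80, and in Cxcl10 once at -187 to -178. Ccl7 and Cx3cl1 had no match to these letters. The AP-1 heptamer, held by 7.33% of windows, was found in Ccl7 at -73 to -67 and in Cxcl10 at -96 to -90. The interferon response core, held by 11.8%, was found in Ccl7 at -110 to -102 and in Cxcl10 at -242 to -234. Cxcl2 had overlapping NF-kB matches at -74 to -65 and at -73 to -64, the latter on both strands. Cx3cl1 and Cxcl12 had no match to any of the 3 motifs. Whether the matches bear on the levels was not tested. A match is a run of letters, and no binding was measured here. In the RefSeq gene order Ccl2 and Ccl7 are neighbours on chromosome 10, and Cxcl1 and Cxcl2 on chromosome 14.

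Ccl2 was the member that TGF-beta1 raised. It had 8.22, 6.80 and 7.69 CPM in the TGF-beta1 libraries, against 2.79, 3.38 and 3.5 CPM in the control libraries, and the groups did not overlap. This was a 2.35-fold rise (95% interval 1.71 to 3.23), a log2 fold change of 1.23 with a standard error (SE) of 0.22 and an adjusted p of 0.000696. With vesicles, Ccl2 had 10.8, 16.3 and 7.59 CPM in the 3D-EV libraries and 7.93, 8.52 and 7.39 CPM in the 2D-EV libraries. The group means were thus 11.6 ± 4.39 CPM in 3D-EV, 7.95 ± 0.57 in 2D-EV, 7.57 ± 0.72 in TGF-beta1 and 3.22 ± 0.383 in control (SD, n = 3 each).

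Control was the lowest group for Ccl2 by more than the spread, and the other 3 groups overlapped. Against control, Ccl2 rose 3.59-fold in 3D-EV (adjusted p = 2.12e-05) and 2.46-fold in 2D-EV (adjusted p = 0.000591). Against TGF-beta1 alone its log2 fold change was 0.07 in 2D-EV, with a 95% interval of -0.36 to 0.50. In 3D-EV against TGF-beta1 it was 0.61 (SE 0.20, adjusted p = 0.597), and in 3D-EV against 2D-EV 0.54 (SE 0.20, adjusted p = 0.618). The level of 3D-EV replicate 3, at 7.59 CPM, lay inside the range of the TGF-beta1 libraries, while replicates 1 and 2 lay above it.

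Ccl7, the second ligand of Ccr2, had 1.70, 2.16 and 2.09 CPM in TGF-beta1 libraries, against 1.17, 1.2 and 0.924 CPM in control libraries. All 3 TGF-beta1 libraries were above all 3 control libraries, and the difference missed the threshold, with a log2 fold change of 0.86 (SE 0.30) and an adjusted p of 0.0561. It passed in 6 of the 19 alternatives tried, among them DESeq2 (adjusted p = 0.0281) and the fits without 3D-EV replicate 1 (0.0496), replicate 2 (0.0161) or replicate 3 (0.0477). Ccl7 had 2.19, 4.56 and 2.14 CPM in 3D-EV libraries and 2.22, 1.61 and 1.40 CPM in 2D-EV libraries. Of these 6, 3D-EV replicate 2 lay furthest above the TGF-beta1 libraries, and 2D-EV replicate 3 lay furthest below them. Against control Ccl7 rose 2.7-fold in 3D-EV (log2 1.43, SE 0.30, adjusted p = 0.00265), and in 2D-EV the log2 fold change was 0.67 (adjusted p = 0.153). Ccl2 and Ccl7 are similar in sequence, and how reads shared between them were assigned is not given in the sources used here.

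Ccl20, the ligand of Ccr6, had 2.93, 5.24 and 1.82 CPM in 3D-EV libraries, against 1.61, 0.899 and 0.852 CPM in TGF-beta1 libraries. The groups did not overlap, with 61 counts in the lowest 3D-EV library and 56 in the highest TGF-beta1 library. The fold change was 2.97 (95% interval 1.70 to 5.19), or 1.57 on the log2 scale (SE 0.38), the gene ranked 23 of 14184 by p, and the adjusted p was 0.455. DESeq2 gave an adjusted p of 0.0197 for the same difference, the lowest of 19 alternatives, which ranged up to 0.85. Ccl20 had 1.49, 1.25 and 2.04 CPM in 2D-EV libraries and 1.25, 1.58 and 2.38 CPM in control libraries, and those 2 groups overlapped with each other and with TGF-beta1. In 3D-EV against 2D-EV its log2 fold change was 1.07 (SE 0.37, adjusted p = 0.618), and in TGF-beta1 against control it was -0.63 (SE 0.39, adjusted p = 0.285). In 3D-EV against control it was 0.94 (SE 0.36, adjusted p = 0.0775), which passed with no filter on low counts (0.0468), with DESeq2 (0.0326) and without 3D-EV replicate 3 (0.0222). Without 3D-EV replicate 2 it was 0.45 (adjusted p = 0.434).

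Cxcl1, a neutrophil chemokine, had 47, 63.8 and 34.1 CPM in 3D-EV libraries, 28.0, 32.0 and 32.4 CPM in 2D-EV libraries, 30.7, 28.7 and 31.2 CPM in TGF-beta1 libraries and 33.5, 36.7 and 31.4 CPM in control libraries. All 3 3D-EV libraries lay above all 2D-EV and TGF-beta1 libraries, and 3D-EV replicate 3 lay inside the control range. In 3D-EV against TGF-beta1 the fold change was 1.60 (95% interval 1.27 to 2.01; log2 0.68, SE 0.15), with a rank of 15 by p and an adjusted p of 0.442. In 3D-EV against 2D-EV it was 1.57 (95% interval 1.25 to 1.97; log2 0.65, SE 0.15), with an adjusted p of 0.457. Without 3D-EV replicate 3, the lowest of its group, both passed, at 0.87 (adjusted p = 0.0231) and 0.85 (adjusted p = 0.017) on the log2 scale.

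Against control, Cxcl1 rose 1.43-fold in 3D-EV (log2 0.51, SE 0.15, adjusted p = 0.0247), with overlapping libraries. That call was lost without 3D-EV replicate 2 (0.26, adjusted p = 0.139), without control replicate 1 (adjusted p = 0.0689) or replicate 3 (0.0881), and with the 2 groups alone (0.0565). In TGF-beta1 against control the log2 fold change was -0.16 (interval -0.49 to 0.17, adjusted p = 0.512), although all 3 TGF-beta1 libraries were below all 3 control libraries. In 2D-EV against TGF-beta1 it was 0.03 (interval -0.30 to 0.36). Its neighbour and relative Cxcl2 was at 0 in 10 of the 12 libraries, with 5 counts in 3D-EV replicate 3 and 5 in control replicate 3. Reads shared between the related genes Cxcl1, Cxcl2 and Cxcl3 could have been split by the counting, and Cxcl3 had 0 to 8 counts.

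Cxcl10, an interferon-induced ligand of Cxcr3, did not separate the groups. It had 5.83, 7.23 and 6.55 CPM in 3D-EV libraries, 7.58, 5.86 and 6.29 in 2D-EV libraries, 5.87, 5.84 and 5.22 in TGF-beta1 libraries and 5.71, 7.44 and 6.69 in control libraries. The 4 groups overlapped, and the order of their means had no neighbours that differed beyond the spread. Its log2 fold change was 0.21 in 3D-EV against TGF-beta1 (interval -0.07 to 0.50), 0.22 in 2D-EV against TGF-beta1 (-0.06 to 0.51), -0.01 in 3D-EV against 2D-EV (-0.29 to 0.27) and -0.23 in TGF-beta1 against control (-0.51 to 0.06). Cxcl12, the ligand of Cxcr4 and of Ackr3, had 3 counts in 3D-EV replicate 1 and 3 in control replicate 1 and was at 0 in the other 10 libraries.

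Cx3cl1 was near the limit of detection, with 6 to 25 counts in 3D-EV, 5 to 10 in 2D-EV, 5 to 14 in TGF-beta1 and 8 to 20 in control libraries. The means were 0.433 ± 0.268 CPM in 3D-EV, 0.195 ± 0.0836 in 2D-EV, 0.261 ± 0.122 in TGF-beta1 and 0.411 ± 0.18 in control (SD, n = 3 each). All 4 groups overlapped with at least 1 other. In 3D-EV against 2D-EV the log2 fold change was 1.14, with an interval of -0.14 to 2.42, and in TGF-beta1 against control it was -0.64 (-1.87 to 0.59), neither of them past the threshold.

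Csf1, a macrophage growth factor, was the member with the narrowest groups. It had 73.9, 74.9 and 79.0 CPM in TGF-beta1 libraries, against 100.0, 102 and 94.5 CPM in control libraries, without overlap. This was a 1.30-fold decrease, a log2 fold change of -0.38 (SE 0.04, interval -0.47 to -0.29) with an adjusted p of 1.55e-05. Csf1 had 86.0, 87.0 and 88.6 CPM in 3D-EV libraries and 87.4, 81.7 and 80.2 CPM in 2D-EV libraries. All 6 vesicle libraries lay above the 3 TGF-beta1 libraries and below the 3 control libraries.

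Against control, Csf1 fell in both vesicle groups, with a log2 fold change of -0.18 in 3D-EV (adjusted p = 0.00646) and -0.25 in 2D-EV (adjusted p = 0.000774). Against TGF-beta1 it was 0.20 in 3D-EV (SE 0.04, interval 0.11 to 0.29), the rank by p was 11 of 14184, and the adjusted p was 0.442. In 2D-EV against TGF-beta1 it was 0.13 (SE 0.04, interval 0.04 to 0.22, adjusted p = 0.469). DESeq2 called the first of these (adjusted p = 0.0471). The 3D-EV and 2D-EV groups overlapped, with a log2 fold change of 0.07 between them (interval -0.02 to 0.16). The means were 87.2 ± 1.33 CPM in 3D-EV, 83.1 ± 3.78 in 2D-EV, 76.0 ± 2.72 in TGF-beta1 and 98.9 ± 3.98 in control (SD, n = 3 each). In the order TGF-beta1, 2D-EV, 3D-EV and control, lowest to highest, only 2D-EV and 3D-EV were neighbours with overlapping libraries. Il34, the other ligand of Csf1r, had 4 counts in 3D-EV replicate 3, 2 in 2D-EV replicate 3, none in TGF-beta1 libraries and 2 in each of control replicates 2 and 3, and was at 0 elsewhere.

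**Figure D2:**
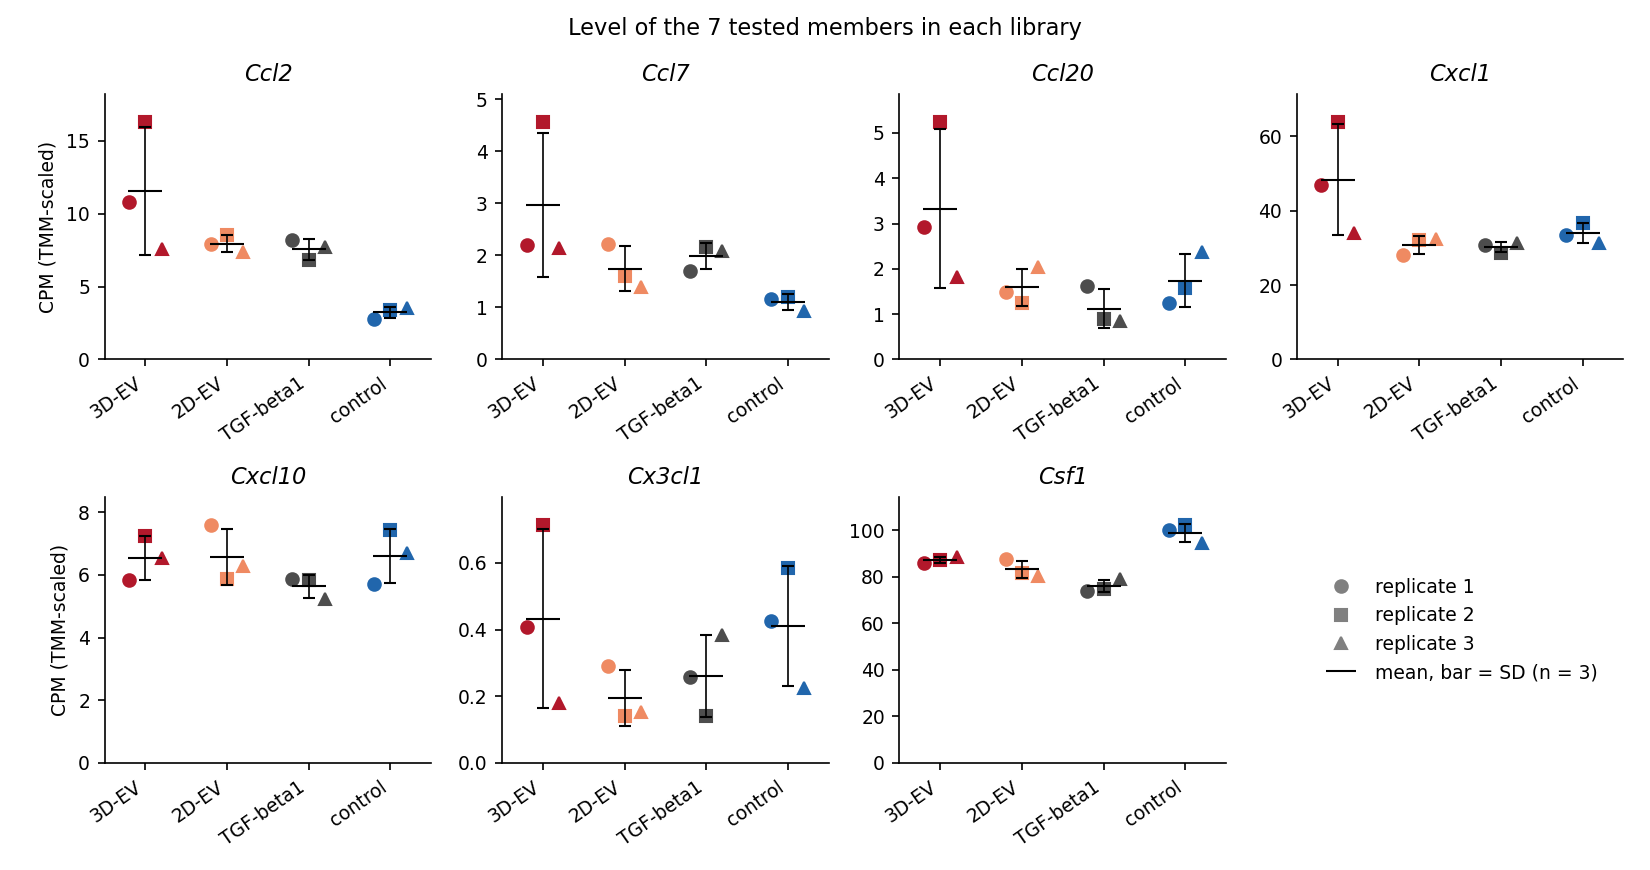
Level of each tested member in CPM on linear axes from 0, with 1 panel per gene, groups in columns, libraries as points whose shape gives the replicate, and the mean with SD as bars (n = 3). Control lies below the other groups for Ccl2 and above them for Csf1, and the square of 3D-EV replicate 2 is the topmost point of 5 panels.

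In the 3D-EV group, 4 chemokines varied far more between libraries than genes did in general, and Csf1 did not. The highest 3D-EV library exceeded the lowest 2.89-fold for Ccl20, 2.15-fold for Ccl2, 2.13-fold for Ccl7 and 1.87-fold for Cxcl1. Among 12161 genes with a mean of at least 1 CPM the median of this ratio was 1.10 in 3D-EV, and the share of them at least as wide was 0.6% for Ccl20, 1.27% for Ccl2, 1.34% for Ccl7 and 2.2% for Cxcl1. For Cxcl10 the ratio was 1.24, which 17.7% of genes reached, and for Csf1 it was 1.03, which 90.8% reached. Over TGF-beta1 libraries the ratio was 1.21 for Ccl2, 1.28 for Ccl7, 1.89 for Ccl20 and 1.09 for Cxcl1. Ccl20 was wide in the other groups too: its ratio was reached by 1.97% of genes in TGF-beta1, 2.05% in control and 3.92% in 2D-EV. For Ccl7 the share was 4.82% in 2D-EV, 14.4% in TGF-beta1 and 13.8% in control. Outside 3D-EV the share was 16.8% or more for Ccl2 and 28.3% or more for Cxcl1. In those groups Ccl20 had 31 to 85 counts in a library and Ccl7 had 33 to 77. The shares were not matched for level, and the part of counting error in these ratios was not tested.

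The wide members were ordered alike within the 3D-EV group. Replicate 2 was the highest of the 12 libraries for 5 of the 7 tested members (Ccl2, Ccl7, Ccl20, Cxcl1 and Cx3cl1), as it was for 1147 of all tested genes, or 8.09%. Replicate 2 was highest and replicate 1 second for Ccl2, Ccl20 and Cxcl1, as for 139 genes, or 0.98%. These patterns were picked after the members' values were seen, so the shares describe them and carry no test. Over genes with a mean of at least 1 CPM these libraries did not stand apart: the median absolute log2 difference from the other 2 of the group was 0.0665, 0.0688 and 0.0734 for 3D-EV replicates 1, 2 and 3, within the range of 0.0597 to 0.0828 over the 12 libraries. A difference limited to few genes would not show in such a median, and it was not tested.

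The size of the 3D-EV estimates leaned on replicate 2. Without it, the log2 fold changes in 3D-EV against TGF-beta1 were 0.29 for Ccl2, 0.13 for Ccl7, 1.09 for Ccl20, 0.43 for Cxcl1 and 0.20 for Csf1, with adjusted p from 0.828 to 0.977. In 3D-EV against 2D-EV without it they were 0.22 for Ccl2, 0.31 for Ccl7, 0.58 for Ccl20, 0.40 for Cxcl1 and 0.07 for Csf1. The sign was kept for these 5 members, and the value for Csf1 moved by less than its SE.

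**Figure D3:**
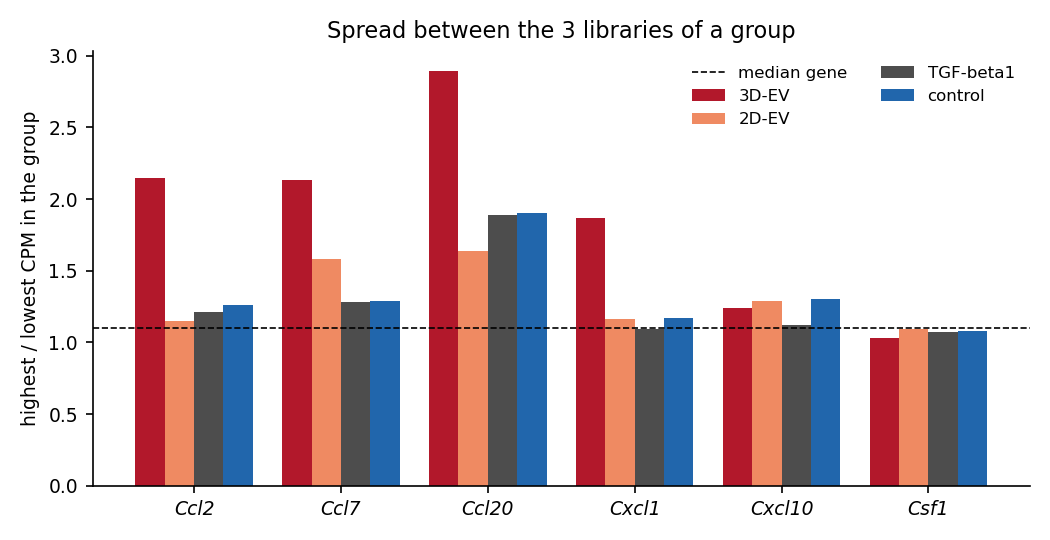
Ratio of the highest to the lowest CPM among the 3 libraries of a group, on a linear axis from 0, for the 6 members with a mean of at least 1 CPM, with a bar per group and the median gene as a dashed line. The 3D-EV bar is tallest for Ccl2, Ccl7, Ccl20 and Cxcl1, at 2.15, 2.13, 2.89 and 1.87, and lies at 1.03 for Csf1.

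Among 29 other chemokine ligands, 26 were in the table, 10 were at 0 in every library and 5 were tested. In TGF-beta1 against control, 1 of the 5 rose and 1 fell, beside 11.8% and 10.2% of all tested genes. Cxcl16, a membrane-bound chemokine that also acts as a scavenger receptor, was at 113 ± 1.8 CPM in TGF-beta1 and 98.2 ± 2.48 CPM in control (SD, n = 3 each), a log2 fold change of 0.20 with an adjusted p of 0.000431. Cxcl13, a B cell chemokine, was at 1.15 ± 0.37 CPM in TGF-beta1 and 2.82 ± 0.283 CPM in control, a log2 fold change of -1.29 with an adjusted p of 0.00128. Among 13 receptors of the members, Ccr2, Ccr6, Cxcr4, Ackr1 and Ackr2 were at 0 in every library, and 1 of the 4 tested rose, beside the same 11.8%. It was Sdc1, a heparan sulfate proteoglycan (log2 0.19, adjusted p = 0.000378). The scavenging receptor of Cxcl12, Ackr3, was at 152 ± 3.85 CPM in 3D-EV, 153 ± 1.22 in 2D-EV, 152 ± 1.52 in TGF-beta1 and 156 ± 3.66 in control (SD, n = 3 each).

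Of 8 enzymes and inhibitors that shed or trim chemokines, 3 rose and 2 fell with TGF-beta1, where 11.8% of all tested genes rose and 10.2% fell. Timp1 and Timp3, which inhibit metalloproteinases, rose by 0.33 and 0.27 on the log2 scale, and Adam10, a protease that releases Cx3cl1 and Cxcl16, by 0.11. The gelatinase Mmp2 fell by 0.52, and Dpp4, which trims the start of several chemokines, fell by 1.37 (adjusted p = 0.0479) at 6 to 39 counts. Of 7 tested cytokines that epithelium sends to leukocytes, 2 fell with TGF-beta1: Kitlg, the mast cell growth factor, at 13.4 ± 1.2 CPM in TGF-beta1 and 27.4 ± 2.42 CPM in control, and the alarmin Il33, at 3.39 ± 0.421 CPM in TGF-beta1 and 6.08 ± 0.266 CPM in control (SD, n = 3 each). Of 6 leukocyte adhesion molecules, Cd44 (0.32) and Cd47 (0.14) rose and Icam1, the ligand of leukocyte integrins, fell by 0.18.

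Regulators of chemokine transcripts were compared between TGF-beta1 and control beside the same 11.8% of genes higher and 10.2% lower. Of 14 NF-kB subunits and feedback genes, Tnfaip3 rose by 0.33 on the log2 scale, Nfkbia fell by 0.29 and Nfkb1 by 0.14, and 11 were not called. Of 11 tested interferon-regulated genes, Irf1 fell by 0.47 and Irf7 by 0.30. Of 7 proteins that direct chemokine mRNA to decay or hold it from decay, Zfp36l1 (-0.63) and Zfp36 (-0.56), which bind AU-rich elements and speed decay, fell, as did Zfp36l2. Zfp36 was at 130, 116 and 124 CPM in TGF-beta1 libraries, against 172, 162 and 211 CPM in control libraries, without overlap.

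None of the genes in these 8 lists was called in 3D-EV against TGF-beta1, in 2D-EV against TGF-beta1 or in 3D-EV against 2D-EV. The smallest p of any list gene in 3D-EV against TGF-beta1 was that of Icam1, which had 174, 174 and 161 CPM in 3D-EV libraries, against 147, 150 and 155 CPM in TGF-beta1 libraries (log2 0.17, adjusted p = 0.455). Nfkbia, an inhibitor and target of NF-kB, had 23.7, 25.9 and 24.1 CPM in 3D-EV libraries, against 22.4, 22 and 19.8 CPM in TGF-beta1 libraries (log2 0.20, adjusted p = 0.597). The alarmin Il33 had 4.13, 4.67 and 4.79 CPM in 3D-EV libraries and 3.94, 4.93 and 4.55 CPM in 2D-EV libraries, against 2.93, 3.76 and 3.46 CPM in TGF-beta1 libraries (log2 0.42 and adjusted p = 0.597 in 3D-EV, log2 0.40 and adjusted p = 0.478 in 2D-EV). In each of these comparisons every vesicle library lay above the TGF-beta1 libraries, without a call.

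Other genes of the same lists had estimates below 0, also without a call. In 3D-EV against TGF-beta1 the NF-kB subunit Rel had 5.96, 6.66 and 7.38 CPM in 3D-EV libraries, against 8.60, 8.04 and 7.89 CPM in TGF-beta1 libraries (log2 -0.29, adjusted p = 0.643). Rc3h1, which directs mRNA to decay, had 13.6, 13.5 and 14.8 CPM in 3D-EV libraries, against 15.7, 16.4 and 17.3 CPM in TGF-beta1 libraries (log2 -0.24, adjusted p = 0.643). In 2D-EV against TGF-beta1 Tnfaip3, a feedback inhibitor of NF-kB, had 27.1, 28.7 and 29.3 CPM in 2D-EV libraries, against 31.6, 31.0 and 31.9 CPM in TGF-beta1 libraries (log2 -0.15, adjusted p = 0.57). For these 3 the vesicle libraries lay below the TGF-beta1 libraries, and for Relb, another subunit, the groups overlapped (log2 -0.32 in 2D-EV, adjusted p = 0.606).

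The genes nearest in pattern were sought for Ccl2, Ccl20 and Ccl7. Among members with a mean of at least 1 CPM, these had the widest range of group means (1.64, 1.17 and 1.05 log2 units, with a pseudocount of 0.5 CPM). Cx3cl1 lay below that level and was not considered. The measure was the mean absolute log2 difference over 12 libraries, with a pseudocount of 0.5 CPM, among 10521 candidates, and the 12 points share libraries and depth. For Ccl2 these were Dnase1l3 (0.18), Ctsf (0.19) and Selp (0.20), where a flat gene would lie at 0.49. Selp, which encodes the leukocyte adhesion molecule P-selectin, had 111, 113 and 99.6 CPM in 3D-EV, 104, 93.2 and 92.8 in 2D-EV, 90.9, 99.5 and 92.1 in TGF-beta1 and 33.3, 32.9 and 36.8 in control libraries. For Ccl7 they were Tgm2, Ckmt1 and Ptgs2 (0.17 each, a flat gene at 0.35), of which Ptgs2 encodes an inducible cyclooxygenase.

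For Ccl20 the nearest were Rad51b (0.28), Tnfrsf9 (0.29) and another member, Cxcl1 (0.29), and a flat gene lay at 0.42. Tnfrsf9, a receptor of the tumour necrosis factor family, had 3.92, 5.47 and 4.08 CPM in 3D-EV libraries, 2.07, 2.44 and 3.02 in 2D-EV libraries, 2.56, 2.33 and 2.5 in TGF-beta1 libraries and 1.99, 2.51 and 2.02 in control libraries. Its 3 3D-EV libraries lay above the 9 others, a pattern by which it was chosen and which carries no test.

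**Figure D4:**
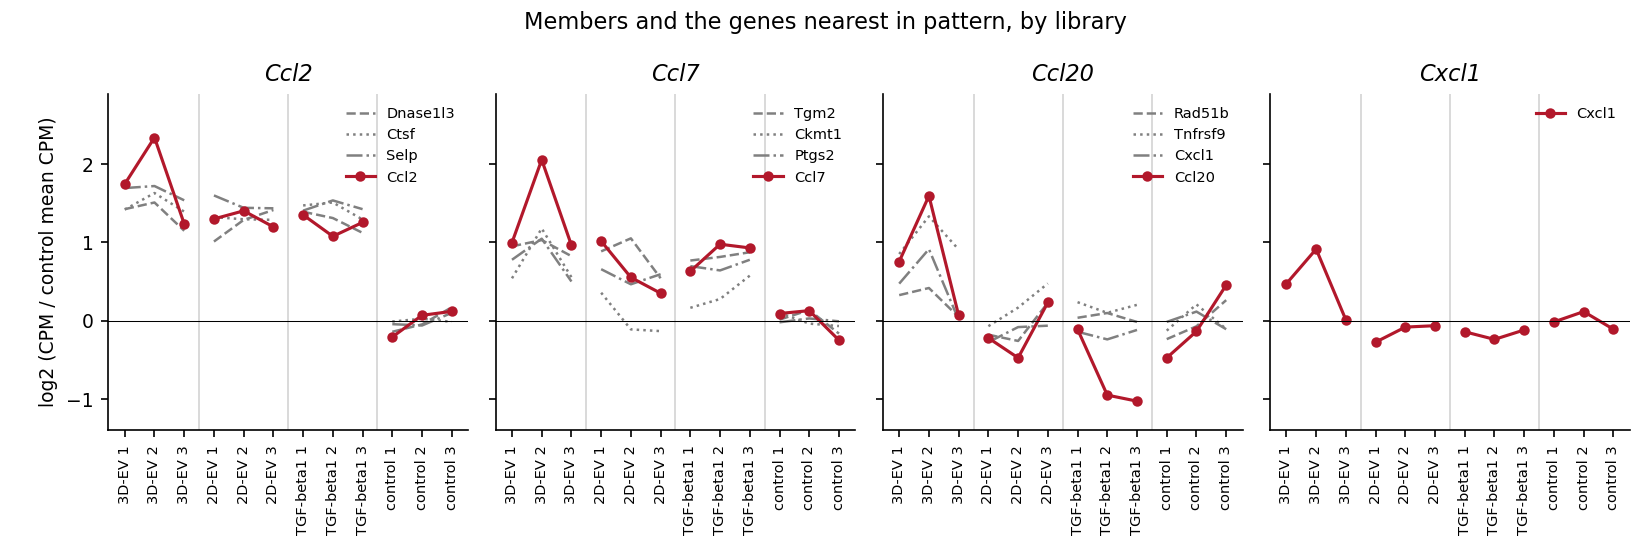
log2 of the CPM in each of the 12 libraries over the control mean CPM, for Ccl2, Ccl7, Ccl20 and Cxcl1 (red points) and for the genes nearest in pattern to the first 3 (grey lines); lines join libraries within a group and stand for no order. The red points of 3D-EV replicate 2 are the highest in all 4 panels, and for Ccl2 the red and grey values of the 9 libraries with TGF-beta1 all lie above those of the 3 control libraries.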

How the data were processed

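Total RNA was taken up in TRIzol and cleared of genomic DNA, per the labels' protocols. Per the submitters' processing notes the tools included fastp, HISAT2, StringTie and DESeq2, with the build mRatBN7.2; how fragments were turned into counts, and whether strand was used, is not stated in the sources used here. The authors deposited whole-number counts per gene, without normalization. The value 1 was rarer (1514 cells of the table) than the value 2 (5687 cells), so the counts are not a plain tally of single reads, and floors in counts are nominal. The 12 tables of single libraries equalled the joint table, and 5394 of the 24660 genes were at 0 throughout.

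From these counts, CPM were computed on TMM-scaled totals (factors 0.983 to 1.03). All 12 libraries were fitted in one model of 4 group means by edgeR 4.0.16 (R 4.3.3; filterByExpr with a minimum count of 10, glmQLFit and glmQLFTest), with p-values adjusted over 14184 genes. Intervals are unadjusted at the 95% level. DESeq2 1.42.0, limma-voom (limma 3.58.1), 2 other scalings, no filter, the 2 groups alone, a replicate block and leaving out each library were the alternatives. The members and lists were chosen with earlier results of these data known. Named genes are the 10 members and, per list, up to 2 in each direction with the smallest p in TGF-beta1 against control or a vesicle group against TGF-beta1. Genes of like pattern are the 3 nearest to each of the 3 members with the widest range of group means, among members with a mean of at least 1 CPM. The genes Zfp36l2, Adam10, Cxcl3, the receptors other than Sdc1 and the marker genes were named beyond these rules. Sequences come from RefSeq's GRCr8 table, whose symbols matched all 10 members, and coordinates of the 2 builds were not mixed. Gene lengths were not used, so levels are not compared between genes.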

Additional observations from a re-analysis of the deposited data

How the results depend on the processing

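The Ccl2 and Csf1 calls against control held in 19 of 19 alternatives in TGF-beta1, 2D-EV and 3D-EV, and the Ccl7 call in 3D-EV against control did so too. In 3D-EV against TGF-beta1, DESeq2 called 2 members (Csf1 and Ccl20) where edgeR called 0. Leaving out a library in turn gave 0 to 1 members called in 3D-EV against TGF-beta1 and in 3D-EV against 2D-EV, the 1 being Cxcl1 without 3D-EV replicate 3, and 0 in 2D-EV against TGF-beta1. It gave 2 to 3 in TGF-beta1 against control, 2 in 2D-EV against control and 3 to 5 in 3D-EV against control. The cause was not tested. The sign of the uncalled log2 fold change of Cx3cl1 in 3D-EV against control turned with limma-voom (-0.01), and over left-out libraries it ran from -0.46 to 0.44. Other uncalled values whose sign turned when a library was left out were those of Ccl2 (0.0 to 0.13) and Cxcl1 (-0.01 to 0.09) in 2D-EV against TGF-beta1, of Cxcl10 in 3D-EV against 2D-EV (-0.09 to 0.11), of Ccl20 (-0.35 to 0.17) and Cxcl10 (-0.12 to 0.08) in 2D-EV against control, and of Cxcl10 in 3D-EV against control (-0.11 to 0.08). Beside these, 284 of 293 values and 480 of 504 with a library left out kept direction and call. The labels number the replicates of each group 1 to 3. Over all tested genes, same-numbered libraries did not deviate together (correlations of residuals -0.067 to 0.045 over 18 pairs of libraries). This gave no sign of pairing, but a shared effect on few genes would not show in such correlations, so pairing was not excluded. With the replicate number as a block, 2 members were called in TGF-beta1 against control, 2 in 2D-EV against control and 4 in 3D-EV against control, and 0 in the other 3 comparisons, as without the block. Counts were lowest for Cx3cl1, Cxcl2, Cxcl12 and Il34, at 25 or fewer in a library, and for Cx3cl1 depth and spread between libraries were not separated.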
